A study of Mus musculus with 5 samples.

Results

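The genes described here are 82 receptor and receptor-like genes of the mouse, taken from 17024 gene symbols that the authors' region lists name. A gene belongs to the set when its listed symbol starts with Gpr and a number, or with P2ry, S1pr, Lpar, Ptger, Ptafr or Adora. The data are chromatin immunoprecipitation sequencing (ChIP-seq) of bone marrow derived dendritic cells from C57BL/6 female mice aged 10 weeks. Marrow cells grew for 7 days in the cytokines GM-CSF and IL-4, both used at 10 ng/mL, before selection of CD11c cells to a purity of 95%. The cells then received diluent or SAHA, an inhibitor of histone deacetylases also known as vorinostat, at a dose labelled 500 nm, for 12 hours. There were 5 groups of 1 library each: H3K4me3 in diluent, H3K4me3 in SAHA, STAT3 in diluent, STAT3 in SAHA, and IgG in diluent cells. The IgG library was the one control for both conditions. The labels do not say whether cells of several mice were pooled. With 1 library per group no difference between SAHA and diluent has a replicate check, and no p-value is given for any of them.

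G protein-coupled receptors span the membrane and pass the binding of a ligand outside the cell to G proteins inside it. The receptors of the Ptger, S1pr, Lpar and Ptafr families bind lipid mediators, those of the P2ry family mostly nucleotides, and those of the Adora family adenosine. In dendritic cells such receptors steer migration, cytokine output and maturation. Prostaglandin E2 and adenosine, for example, raise cyclic AMP through receptors coupled to Gs. H3K4me3 is a histone mark found at the starts of active and poised genes, and STAT3 is a transcription factor activated by cytokine receptors. Neither measures RNA, so a marked start does not give a gene's expression.

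The set is wider than orphan and lipid receptors. It held 3 prostaglandin E2, 1 platelet activating factor, 4 sphingosine 1-phosphate, 6 lysophosphatidic acid, 3 adenosine and 8 P2ry genes. The Gpr symbols added 11 receptors with another named ligand, 10 adhesion class receptors, and 6 multi-pass proteins that are named Gpr without being classical receptors. The remaining 30 were grouped as orphan or other genes, and these include Gpr77, Gpr137c and Gpr137b-ps. By RefSeq, 80 of the 82 are protein-coding and 2, Gpr137b-ps and Gpr31c, are pseudogenes. In 12 cases the listed symbol is an older one, such as Gpr120 for Ffar4, Gpr77 for C5ar2, Gpr56 for Adgrg1 and Gpr97 for Adgrg3.

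Filtered tags (reads left after the peak caller MACS had dropped duplicates) ranged from 17810183 to 25013431 over the 5 libraries, with 22420200 for H3K4me3 in diluent and 21428355 for H3K4me3 in SAHA. Against IgG the authors listed 22255 and 25723 H3K4me3 regions, and 3507 and 8552 STAT3 regions, in diluent and SAHA. Among genes that mark dendritic and other myeloid cells, all 9 listed ones, Itgax and Zbtb46 among them, had H3K4me3 near a start in both conditions. Of the listed markers of other cells, H3K4me3 was called in both conditions at Lck (T cell), Elane (granulocyte) and Klf1 (erythroid), and in diluent alone at Cd79b (B cell). Those with no call in either condition included Cd4, Zap70, Pax5, Klrb1c, Eomes, Cpa3, Pax6 and Foxa2.

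Most of the receptor genes carried H3K4me3. A region lay within 5 kb of a listed start at 63 of 82 genes (76.8%) in diluent and at 64 (78.0%) in SAHA. The same was true of 84.2% and 85.2% of the 14131 listed protein-coding genes, shares a few percentage points higher than those of the receptor genes. Both backgrounds hold only genes to which some region was assigned. The start lay inside the region at 58 genes in diluent and 60 in SAHA. The mark was called in both conditions at 60 genes, in SAHA alone at 4, in diluent alone at 3 and in neither at 15. Over all listed protein-coding genes, 2.09% had the mark in SAHA alone and 1.07% in diluent alone. No region of the IgG library called without a control lay within 5 kb of any of the 82 genes.

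The listed lipid and adenosine receptor genes were marked in both conditions. All 3 Ptger, 4 S1pr, 6 Lpar and 3 Adora genes and Ptafr had H3K4me3 within 5 kb in both. The same held for 7 of 8 P2ry genes and all 6 multi-pass proteins. P2ry4, a receptor for uridine nucleotides, had none. Over all listed protein-coding genes the shares were 84.2% in diluent and 85.2% in SAHA. A gene is in the set only when some region was assigned to it, and Ptger1, S1pr4 and Adora1 are not in it. In diluent the Ptger3 region was faint, with 29 tags, and those of S1pr5 and Adora3 lay 3094 and 2785 bp from a start. Among receptors with another named ligand, 9 of 11 were marked in diluent and 10 in SAHA. The adhesion class was marked least often, at 4 of 10 genes in diluent and 5 in SAHA. Unmarked in both conditions were, among others, the adhesion receptors Gpr110, Gpr116, Gpr133 and Gpr98, the lysophosphatidylserine receptor Gpr34, P2ry4, and the orphan or other genes Gpr12, Gpr151, Gpr161, Gpr179, Gpr26, Gpr50 and Gpr61.

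The starts of the set differ in their CG content. The RefSeq promoter table (GRCm38.p6, 250 bases before to 50 after each start) held 62 of the 82 genes. CG is the dinucleotide that vertebrate genomes have largely lost outside CG-rich promoters. The median count of CG in the 300 bases was 16.5 at 48 genes marked in both conditions (range 1 to 42) and 6.5 at 8 genes marked in neither (2 to 14). Over all listed protein-coding genes in the table the medians were 22 and 6. The set's promoters, with a median of 9.5, were poorer in CG than the 20 of all listed genes. Coordinates of the deposited regions are mm9, so whether each RefSeq start is the listed start was not checked.

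6 promoters are shown, picked after their values were seen, and they do not stand for the set. Gpr55, P2ry13 and Gpr15 had wider, stronger or additional H3K4me3 in SAHA, and hold 4, 6 and 2 CG. Other genes with more tags in SAHA have CG-rich promoters, such as Gpr146 with 32, Ptger3 with 27, Gpr176 with 20 and Gpr120 with 19. Ptger4, Gpr160 and Gpr135 were marked in both conditions, with 25, 26 and 21 CG. Capitals mark each CG, the sequences run 5′ to 3′ on the gene's strand, and the first base after position 250 is the start.
Gpr55, GRCm38.p6 chr1:85961006-85961305 (minus strand): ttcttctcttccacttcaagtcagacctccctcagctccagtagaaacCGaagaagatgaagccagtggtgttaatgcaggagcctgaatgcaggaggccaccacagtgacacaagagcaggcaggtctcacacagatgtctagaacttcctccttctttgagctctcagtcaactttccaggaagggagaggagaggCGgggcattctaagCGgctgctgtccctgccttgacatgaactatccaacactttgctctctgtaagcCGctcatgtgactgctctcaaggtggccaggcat
P2ry13, GRCm38.p6 chr3:59210833-59211132 (minus strand): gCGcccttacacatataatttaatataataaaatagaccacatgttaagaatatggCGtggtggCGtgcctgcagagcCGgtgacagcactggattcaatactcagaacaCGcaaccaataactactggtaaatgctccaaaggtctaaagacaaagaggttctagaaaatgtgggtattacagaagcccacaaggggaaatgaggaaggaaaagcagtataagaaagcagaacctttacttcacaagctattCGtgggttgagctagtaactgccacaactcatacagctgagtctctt
Gpr15, GRCm38.p6 chr16:58718823-58719122 (minus strand): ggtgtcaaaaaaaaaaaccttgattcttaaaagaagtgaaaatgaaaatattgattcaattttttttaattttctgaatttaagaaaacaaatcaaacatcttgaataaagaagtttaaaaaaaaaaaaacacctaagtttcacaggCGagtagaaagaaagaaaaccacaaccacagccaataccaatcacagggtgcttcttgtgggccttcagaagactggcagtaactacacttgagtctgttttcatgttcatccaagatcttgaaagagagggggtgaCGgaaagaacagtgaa
Ptger4, GRCm38.p6 chr15:5244138-5244437 (minus strand): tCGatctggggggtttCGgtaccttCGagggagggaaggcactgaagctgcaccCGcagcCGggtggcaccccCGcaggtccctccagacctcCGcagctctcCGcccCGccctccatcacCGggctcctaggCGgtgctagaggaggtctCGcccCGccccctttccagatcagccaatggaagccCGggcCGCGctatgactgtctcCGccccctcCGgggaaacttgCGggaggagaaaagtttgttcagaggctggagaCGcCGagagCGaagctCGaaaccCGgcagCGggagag
Gpr160, GRCm38.p6 chr3:30855700-30855999 (plus strand): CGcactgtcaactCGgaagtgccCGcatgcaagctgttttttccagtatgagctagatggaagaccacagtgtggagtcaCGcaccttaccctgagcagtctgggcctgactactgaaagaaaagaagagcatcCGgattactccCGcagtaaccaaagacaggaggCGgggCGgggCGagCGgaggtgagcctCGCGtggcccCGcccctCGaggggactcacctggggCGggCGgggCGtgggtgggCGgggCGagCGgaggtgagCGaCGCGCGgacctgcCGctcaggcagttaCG
Gpr135, GRCm38.p6 chr12:72071052-72071351 (minus strand): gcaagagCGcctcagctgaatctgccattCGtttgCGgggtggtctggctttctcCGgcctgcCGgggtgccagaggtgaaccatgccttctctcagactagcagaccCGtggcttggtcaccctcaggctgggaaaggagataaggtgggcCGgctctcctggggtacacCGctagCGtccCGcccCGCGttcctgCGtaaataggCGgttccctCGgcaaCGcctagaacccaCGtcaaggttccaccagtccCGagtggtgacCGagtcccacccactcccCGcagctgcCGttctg

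Among genes with a tag ratio, promoter CG also differed between those with more and those with fewer tags in SAHA. The median was 10.5 CG at the 10 promoters whose counting interval (defined with the ratios) lay above 0, and 23 at the 10 whose interval lay below 0. The ranges, 2 to 32 and 1 to 38, overlapped almost fully. Over all listed genes the medians were 19 and 22.

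**Figure D1:**
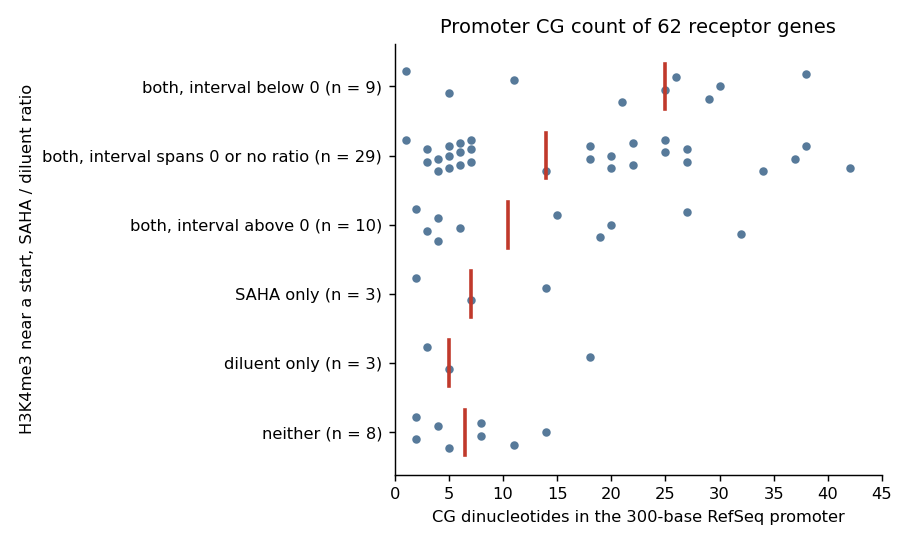
CG dinucleotides (x axis) in the 300-base RefSeq promoters of 62 receptor genes, by H3K4me3 call and tag ratio (y axis); each point is 1 gene and the red bar the median. The 8 genes marked in neither condition stay at 14 CG or fewer, and genes marked in both reach 42.

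H3K4me3 tags were compared at regions that overlapped 1 to 1 between the conditions and had tag counts in both single-library tables. A gene took the pair nearest a listed start, within 5 kb, and 54 of the 82 genes had one. Each ratio is log2 of SAHA over diluent, each count scaled to its library's filtered tags, with an exact 95% interval that covers counting error only. The median ratio of the 54 genes was 0.03 (quartiles -0.17 and 0.29), against -0.05 (-0.17 and 0.12) for 10770 listed protein-coding genes. The interval lay above 0 at 14 genes, below 0 at 15 and spanned 0 at 25. Over all listed genes 20.6% lay above and 31.3% below. Since regions were called separately in each library, a wider call also collects more tags. Per kb of called width the median was -0.08 for the receptor genes and -0.13 for all.

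**Figure D2:**
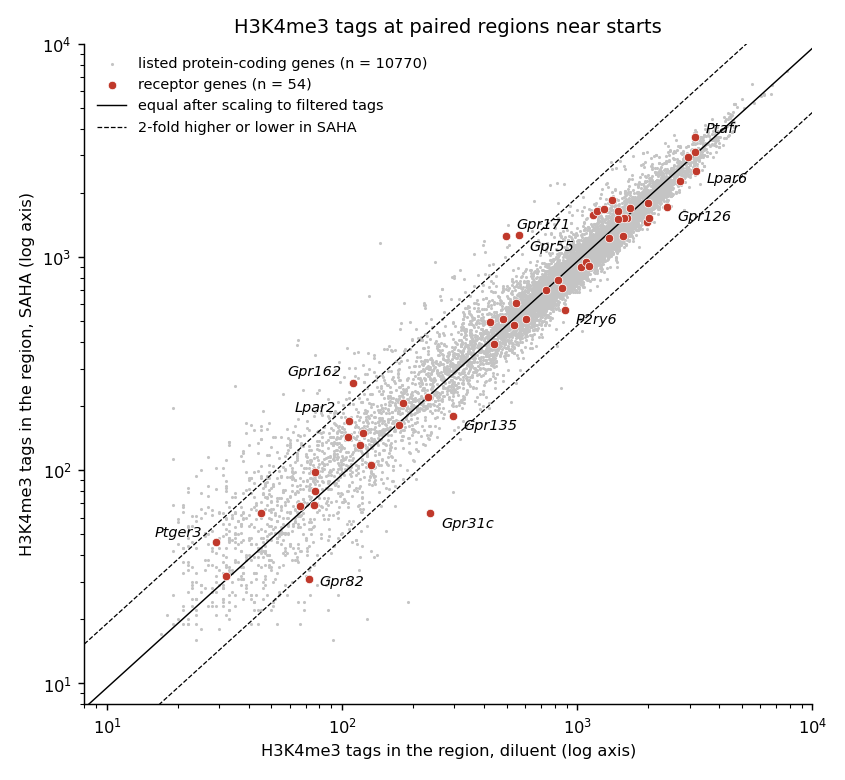
H3K4me3 tags in diluent (x) and SAHA (y), both log axes, at the paired region nearest each gene's start; red points are 54 receptor genes and grey points 10770 listed protein-coding genes. Gpr171, Gpr162 and Gpr55 lie above the upper 2-fold line, and Gpr31c and Gpr82 below the lower one.

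At least 2-fold more tags in SAHA were counted at 3 receptor genes, against 2.33% of all listed genes, and at least 2-fold fewer at 2, against 0.474%. The largest ratio was at Gpr171, a receptor of the P2Y12-like branch, whose start region (mm9 chr3:58902359-58905980 in diluent) held 497 tags in diluent and 1253 in SAHA. That is 2.64-fold, a log2 ratio of 1.399 (interval 1.25 to 1.55), and 99.1% of listed genes had a lower ratio. Its width was nearly equal, 3622 and 3940 bp, and per kb the ratio was 1.28. Gpr171 was the one receptor gene past 2-fold per kb, where 0.39% of all listed genes were.

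Gpr162, an orphan receptor, had 111 tags in diluent and 256 in SAHA, a log2 ratio of 1.27 (0.94 to 1.61). Gpr55, a receptor for lysophosphatidylinositol, had 563 and 1272 tags, a log2 ratio of 1.24 (1.10 to 1.39). Both regions were also wider in SAHA, from 1439 to 1911 bp and from 4153 to 5805 bp. Per kb their ratios were 0.86 and 0.76, so neither passed 2-fold on that scale.

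Lower tags were counted at Gpr31c, a pseudogene, with 237 in diluent and 63 in SAHA, a log2 ratio of -1.85 (-2.27 to -1.44). The SAHA region was 1539 bp wide against 3149 bp and began 1590 bp from the start, which the diluent region covered. Gpr82, an orphan receptor gene of the X chromosome, had 72 and 31 tags at a region about 5 kb from its start, a log2 ratio of -1.15 (-1.81 to -0.52). Per kb neither was 2-fold lower, as was true of all but 0.0464% of listed genes. Reads of Gpr31c, like those of the near-identical pair Gpr137b and Gpr137b-ps, may be shared with other copies, and the sources used here do not say how the authors treated such reads.

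**Figure D3:**
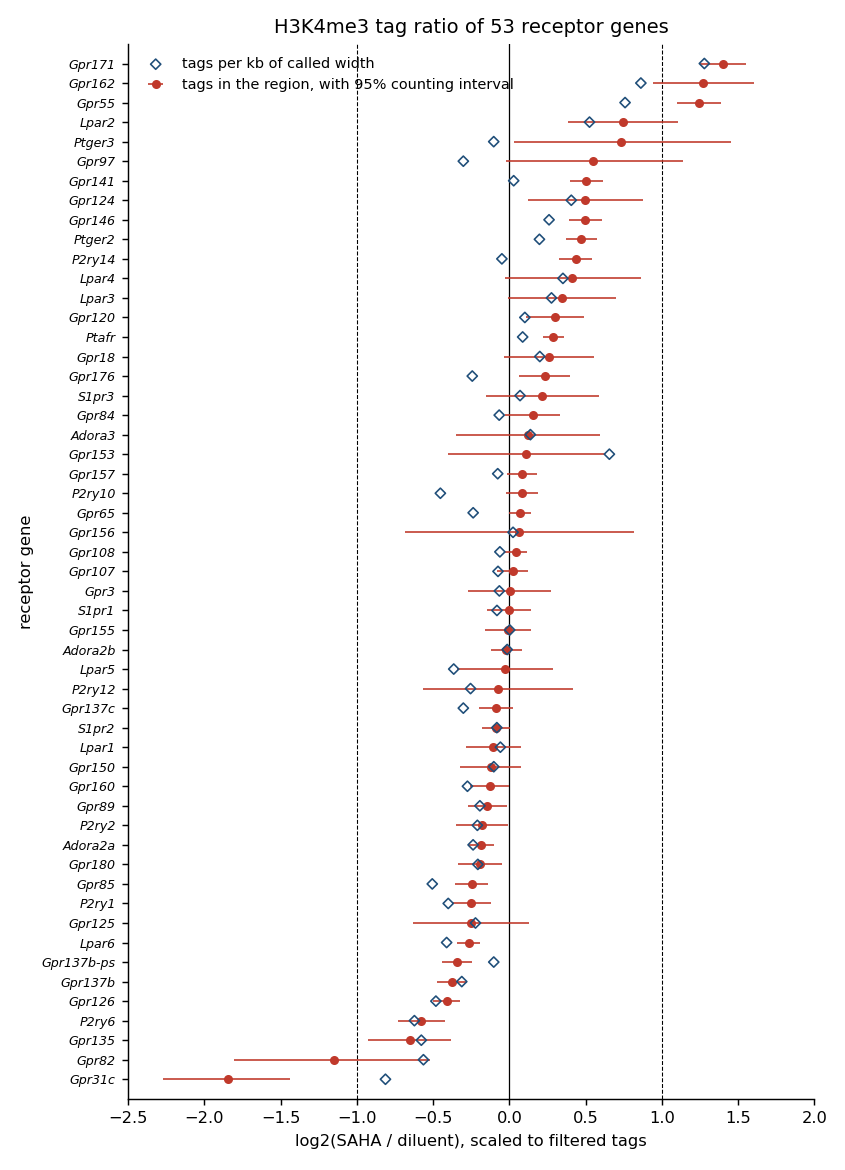
Log2 ratio of H3K4me3 tags, SAHA over diluent (x axis), of 53 of the receptor genes in order; red points and bars are ratios with 95% counting intervals and blue diamonds the ratio per kb of called width. Dashed lines mark 2-fold; Gpr171 is past it on both scales.

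The 2 Ptger genes with a ratio both had more tags in SAHA. Ptger2, a Gs-coupled prostaglandin E2 receptor, had 1402 tags in diluent and 1859 in SAHA, a log2 ratio of 0.47 (0.37 to 0.57), or 0.20 per kb. Ptger3, which couples to Gi, had a faint region of 29 and 46 tags, a ratio of 0.73 (0.03 to 1.45), and its sign turned per kb (-0.10). Ptger4, the other Gs-coupled receptor, had no tag count, because no region in the tables of single libraries has its ends. Ptafr, the receptor for platelet activating factor, had 3154 and 3680 tags, a ratio of 0.29 (0.22 to 0.36). Its SAHA count was the highest among the 54 genes with a ratio, and leaves out a second, uncounted SAHA region of 6343 bp.

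Of the lysophosphatidic acid receptors, Lpar6 had by far the most tags, 3199 in diluent and 2540 in SAHA, with a ratio of -0.27 (-0.34 to -0.19). Lpar2 had 107 and 171 tags, a ratio of 0.74 (0.38 to 1.10). Lpar1 (540 and 479 tags), Lpar3 (123 and 149), Lpar4 (77 and 98) and Lpar5 (174 and 163) had intervals that spanned 0. Among the sphingosine 1-phosphate receptors, S1pr2 had the most tags, 2002 and 1797. S1pr1, the receptor that guides lymphocytes out of lymphoid tissue, had 824 and 785, and S1pr3 had 119 and 132. The intervals of all 3 spanned 0, with ratios of -0.09, -0.0047 and 0.21. At S1pr5 a SAHA region of 36 tags covered the start, and the nearest diluent region lay 3094 bp away.

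Adora2a, a Gs-coupled adenosine receptor, had 2721 tags in diluent and 2288 in SAHA, a ratio of -0.18 (-0.27 to -0.10). Adora2b, also Gs-coupled, had 1626 and 1530 tags and an interval that spanned 0. Adora3, which couples to Gi, had a start region in SAHA alone, of 47 tags, and its shared region 2785 bp from the start in diluent held 77 and 80 tags.

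The P2ry genes went both ways. P2ry6, a receptor for UDP, had 884 tags in diluent and 566 in SAHA, a ratio of -0.58 (-0.73 to -0.42). P2ry1, a receptor for ADP, had 1125 and 904 tags (-0.25), and P2ry2, a receptor for ATP and UTP, had 606 and 511 (-0.18), both with intervals below 0. P2ry14, a receptor for UDP-glucose, had more tags in SAHA at both of its start regions, 1297 and 1674 at one (0.43, 0.33 to 0.54) and 596 and 927 at the other (0.70, 0.55 to 0.85). Per kb the former was at -0.05, its width going from 4115 to 5752 bp, and the latter at 0.48. P2ry10, a receptor for lysophosphatidylserine, had nearly equal tags, 1494 and 1510, over a region of 5769 bp in diluent that reached 8352 bp in SAHA. P2ry12, a receptor for ADP, had 76 and 69 tags.

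Of the receptors with another named ligand, the 6 with a pair had ratios above 0, with a median of 0.24, or 0.02 per kb. Beside Gpr55 they included Gpr120, a receptor for long-chain fatty acids (424 and 498 tags), Gpr18 (181 and 207), the proton sensor Gpr65 (2958 and 2963) and Gpr84, a receptor for medium-chain fatty acids (485 and 515, at a region about 4 kb from its start). The intervals of Gpr18, Gpr65 and Gpr84 spanned 0. The region over the Gpr84 start is not in that ratio. It was narrower in SAHA, 3260 bp with 302 tags in diluent and 2590 bp, uncounted, in SAHA. At 3 genes without a 1 to 1 pair, only some of the regions at the start have tag counts, so the counts are given with their widths and without a ratio. Gpr183, the oxysterol receptor that positions dendritic cells in lymphoid tissue, had 378 tags over 2441 bp in diluent and 709 over 4152 bp in SAHA. Gpr35 had 333 tags over 3687 bp and 664 over 4559 bp. P2ry13, a receptor for ADP, had 116 tags over 1819 bp and 288 over 4456 bp. Uncounted at the same places were diluent regions of 993 bp at Gpr183 and of 880 and 742 bp at P2ry13, all under the SAHA region, and a SAHA region of 963 bp at Gpr35. The lower diluent counts at Gpr183 and P2ry13 therefore cover less of the start than the SAHA counts do.

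Of the adhesion receptors, Gpr126 had 2399 tags in diluent and 1724 in SAHA (-0.41, -0.50 to -0.32). Gpr124 had 106 and 143 (0.50, 0.12 to 0.87), and Gpr125 had 132 and 106, with an interval that spanned 0. Gpr97, a receptor of granulocytes, had 2 shared regions: 45 and 63 tags at the nearer (0.55, -0.02 to 1.14) and 79 and 173 at the other (1.20, 0.80 to 1.60), which was looked up after the first was seen.

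Among the remaining Gpr genes, Gpr141 had 1164 and 1578 tags (0.50, 0.39 to 0.61, and 0.03 per kb), Gpr146 had 1216 and 1639 (0.50, 0.39 to 0.60), and Gpr176 had 546 and 612 (0.23, 0.06 to 0.40). Per kb Gpr146 was at 0.26, while Gpr176, whose region went from 2358 to 3275 bp, turned to -0.24. On the low side, Gpr135 had 296 and 180 tags (-0.65, -0.93 to -0.38), Gpr137b had 1980 and 1459 (-0.38), Gpr137b-ps had 2020 and 1521 (-0.34) and Gpr85 had 1559 and 1254 (-0.25). At Gpr135 the low count held per kb (-0.58), its widths being 1834 and 1742 bp. The start regions of Gpr108, Gpr137c and Gpr146 also hold the start of another gene, Trip10, Txndc16 and D830046C22Rik, so their tags cannot be given to 1 gene.

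Of the 4 genes with H3K4me3 near a start in SAHA alone, 3 are described. Gpr15, a homing receptor of T cells, had a SAHA region of 1967 bp and 122 tags that ended 1688 bp from its start, and a smaller shared region lay 5700 bp away in diluent. Gpr56, an adhesion receptor, had a region of 1588 bp and 110 tags over a start (mm9 chr8:97507468-97509055), with no diluent region within 35 kb. Gpr4, a proton sensor, had 669 bp and 24 tags over its start.

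In diluent alone were Gpr62, with 46 tags over 937 bp, Gpr75, with 28 tags over 764 bp, and Gpr82, whose SAHA region lay 5011 bp from its start, just past the window. These 3 were faint as well, and no gene with more than 72 tags near its start in diluent was without a SAHA region there. With each list cut to the same number of highest-scoring regions, 3 genes were in SAHA alone and 5 in diluent alone, where Gpr31c and Gpr77 joined. Shares of all listed genes at that length were not counted.

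Region calls around the set were more numerous in SAHA. The authors assigned 113 H3K4me3 regions to these genes in diluent and 141 in SAHA. Of the 141, 35 (24.8%) overlapped no diluent region, where 17.8% of all SAHA regions did not, and of the 113, 5 (4.42%) overlapped no SAHA region, against 5.37% of all diluent regions. The 35 were narrow, with a median of 760 bp against 1739 bp for shared ones, and 22 lay beyond 5 kb of a start. With lists of equal length, 16 were found in SAHA alone and 12 in diluent alone. Shares of all regions at that length were not counted, so the 16 and 12 have no background. The widest of the 35 was a region of 6343 bp assigned to Ptafr, which began 14 bp past the end of the diluent region there.

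Several receptor genes had very wide H3K4me3. The region nearest the start had a median width of 2358 bp in diluent and 2634 bp in SAHA, close to the 2449 and 2547 bp of all listed genes. Wide regions were more frequent than among all genes, as a description: 19 of 63 genes (30.2%) had 4 kb or more in diluent and 23 of 64 (35.9%) in SAHA, where 14.7% and 19.1% of all listed genes with a region did. Ptger4 had the widest, 10146 bp in diluent and 10665 bp in SAHA. Gpr132, a receptor linked to lysophospholipids and oxidised fatty acids, followed with 8087 and 9674 bp. Then came Ptafr (6262 and 7200 bp), P2ry10 (5769 and 8352 bp) and Gpr141 (5302 and 7378 bp). Gpr126, at 5855 bp, was among the 5 widest in diluent in place of Gpr141. Each called region is ranked singly. At Ptafr a second SAHA region, of 6343 bp, began just past the end of the one of 7200 bp. The nearest region was wider in SAHA at 45 of 60 genes (75%), as it was at 70.5% of all listed genes, and the median log2 width ratio was 0.10 against 0.08. Scores do not rank these regions, since 35 genes in diluent and 37 in SAHA shared 1 score, 3100.

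**Figure D4:**
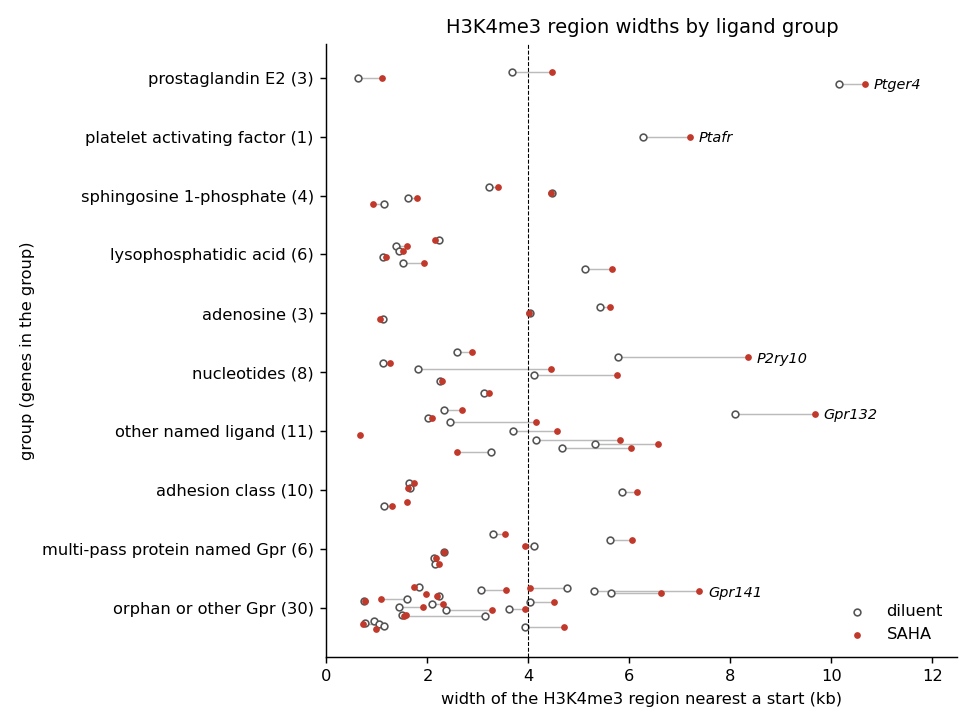
Width in kb of the H3K4me3 region nearest a start (x axis) in diluent (open) and SAHA (red), by ligand group (y axis); a line joins the 2 values of a gene. Ptger4, Gpr132, P2ry10, Gpr141 and Ptafr reach 7 kb or more in SAHA; the dashed line is at 4 kb.

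Gpr171, P2ry14, P2ry13 and P2ry12 lie near each other on chromosome 3, and these 4 were looked at together after their values were seen. From Gpr171 the listed starts of P2ry14, P2ry13 and P2ry12 follow within 161 kb (mm9 chr3:58905713-59066753), all on the minus strand. Gpr171 and P2ry14 had more tags in SAHA, as given above, though per kb 1 of the 2 P2ry14 regions did not, and the P2ry13 region was wider there. A further shared region 127 kb from the Gpr171 start, assigned to P2ry13, had 43 tags in diluent and 84 in SAHA. P2ry12 at the far end had 76 and 69 tags, with an interval that spanned 0. The STAT3 list of SAHA had 4 regions assigned to these genes here, with scores of 30.64 to 41.73, and that of diluent had none; 3 lay within the span and 1 just past the P2ry12 start. With STAT3 lists of equal length, whose SAHA scores start at 37.28, 1 of the 4 remained, the one assigned to P2ry14 at 41.73 and more than 5 kb from its starts.

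STAT3 was called near few of the genes. A region lay within 5 kb of a start at 8 of 82 genes (9.76%) in diluent and at 15 (18.3%) in SAHA. Over all listed protein-coding genes the shares were 6.39% and 18.3%, so the set's share in SAHA was the same as the background. The diluent genes were Gpr160, Gpr176, Gpr35, Gpr97, Lpar1, Lpar6, P2ry6 and S1pr3. The SAHA genes were Adora3, Gpr135, Gpr137b, Gpr146, Gpr155, Gpr162, Gpr176, Gpr56, Gpr61, Gpr77, P2ry12, P2ry13, P2ry14, P2ry6 and S1pr1. The authors assigned the region counted for Gpr146 to D830046C22Rik, and it lay 2008 bp from the Gpr146 start. Scores reached 60.62 at most in diluent and 53.45 in SAHA, where the lists start at 30 and go up to 147 and 242.

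The SAHA count was no longer the larger with lists of equal length. When both lists were cut to 3507 regions, 8 of 82 genes remained in diluent and 5 of 82 in SAHA (Gpr135, Gpr137b, Gpr146, Gpr155 and Gpr77). Over all listed genes the shares were 6.39% and 9.50%. The longer SAHA list came from the library with fewer filtered tags, 17810183 against 25013431 in diluent. In the tables called without a control, a STAT3 region lay near Gpr160 and Gpr176 in diluent and near none of the genes in SAHA. Over all listed protein-coding genes the shares in those tables were also low, 1.02% in diluent and 1.25% in SAHA.

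Only Gpr176 and P2ry6 had STAT3 in both conditions. At P2ry6 the regions overlapped (mm9 chr7:108109029-108109932 in diluent, score 31.59, and chr7:108108790-108109456 in SAHA, score 33.66), about 3 kb from the start. At Gpr176, an orphan receptor, they lay 4920 bp apart, with scores of 60.62 in diluent and 30.02 in SAHA. Another overlapping pair, outside the 5 kb window, was assigned to Gpr65 about 14 kb from its start, with a diluent score of 83.6, the highest STAT3 score assigned to any of the genes, and a SAHA score of 49.52.

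The STAT3 region overlapped an H3K4me3 region of its own condition at 4 of 8 genes in diluent and 8 of 15 in SAHA, where 24.9% and 27.2% of all STAT3 regions did. All the genes counted here lie near a start by the rule, so the shares are not like for like. Gpr160, an orphan receptor, had its diluent region 37 bp from the start (mm9 chr3:30754304-30754835, score 52.34, 21 tags). In SAHA the start lay inside a STAT3 region at Gpr162 (score 36.11) and Gpr56 (score 33.66), the former with more H3K4me3 tags in SAHA and the latter with H3K4me3 in SAHA alone. Gpr135, with STAT3 246 bp from its start in SAHA (score 53.45), had fewer H3K4me3 tags, as did P2ry6. Gpr61 had STAT3 209 bp from its start in SAHA and no H3K4me3 in either condition.

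The STAT palindrome TTCNNNGAA, which reads the same on both strands, occurs in 8.30% of the 32851 RefSeq promoters and in 4 of the 80 promoters of these genes, those of Gpr146, Gpr4, Gpr55 and Gpr62. In the Gpr55 promoter printed above it is TTCCAGGAA, starting 74 bases before the start. Of 16 genes with both a STAT3 region within 5 kb and a promoter in the table, 1, Gpr146, holds it. The authors assigned that STAT3 region to D830046C22Rik. The palindromes are matches of letters in 300 bases, and most STAT3 regions lie outside that window.

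Receptors work with G proteins, with effectors such as adenylyl cyclases and with enzymes that make or degrade their ligands. Of 79 such genes 77 were listed, and 77 had H3K4me3 in diluent and 76 in SAHA. Over all listed protein-coding genes the shares were 84.2% and 85.2%, and a gene is listed only when some region was assigned to it. STAT3 lay near 6 (7.79%) in diluent and 25 (32.5%) in SAHA, against 6.39% and 18.3% of all listed genes. With STAT3 lists of equal length the SAHA count was 15 (19.5%), against 9.50% of all listed genes. The median tag ratio of the 67 with a pair was 0.04, and 3 (4.48%) had at least 2-fold more tags in SAHA, against 2.33% of all listed genes, and 0 at least 2-fold fewer, against 0.474%. Per kb 1 of the 3, Pafah2, was past 2-fold. Those 3 were Pafah2, an enzyme that degrades platelet activating factor (78 and 231 tags, 1.63), Pde4d, a phosphodiesterase of cyclic AMP (332 and 688 tags, 1.12), and Rgs18, a regulator of G protein signalling (107 and 218 tags, 1.09). Ptgs2, the inducible cyclooxygenase that feeds prostaglandin E2 synthesis, had 696 and 1027 tags, a ratio of 0.63 (0.49 to 0.77).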

How the data were processed

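The submitters' processing notes name BWA as the aligner and mm9 as the genome. Per the file headers, MACS 1.4.0rc2 called regions library by library with no control (p-value limit 1e-05, at most 2 duplicate tags per position) and gave each region a tag count. The authors' deposited lists against IgG give each region a score and 1 gene. Those scores are the authors', and no source used here says how those lists were made. Region counts near starts used a window of 5 kb around each start in the lists, and regions overlapped when they shared at least 1 bp. Ratios and Clopper-Pearson intervals at 95% were computed with scipy 1.17.1 (Python 3.11.15, pandas 2.3.3) and checked on simulated counts. RefSeq (GRCm38.p6) served for names, biotypes and promoters. Named genes are all P2ry, S1pr, Lpar, Ptger, Ptafr and Adora genes, Gpr genes with STAT3 or with H3K4me3 in 1 condition or none, the 10 highest and 10 lowest ratios and the 5 widest regions per library; a few others are named as members of a list. The genes and lists were chosen with earlier results of these data known. A few genes that the rule would name are not reported here singly, and stay in the counts.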

Additional observations from a re-analysis of the deposited data

How the results depend on the processing

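Of 56 alternatives to 16 results, 37 kept their side and size (counts within 1.5 times, medians within the median half-width of the counting intervals or, for width, of the quartiles). Genes with H3K4me3 in diluent numbered 39 with regions at or above the list's median score. STAT3 genes numbered 2 in diluent and 7 in SAHA within 1 kb, and 2 and 6 at or above the median score. They numbered 2 and 0 in the tables called without a control, against 1.02% and 1.25% of all listed genes. With lists of equal length they numbered 5 in SAHA, against 9.50% of all listed genes. Genes with H3K4me3 in diluent alone numbered 1 within 10 kb and 5 with equal lists. Regions found in 1 condition with equal lists numbered 16 in SAHA and 12 in diluent. Shares of all genes or regions were not counted within 1 kb or 10 kb, at the median score, or for H3K4me3 with equal lists. The median tag ratio reversed per kb, to -0.0824. Genes at least 2-fold higher numbered 1 per kb and 5 over joined regions, where Gpr35 and P2ry13 were added with some regions uncounted, and genes at least 2-fold lower 0 per kb and 1 within 1 kb. Of the pathway genes, 15 had STAT3 in SAHA with equal lists and 1 was at least 2-fold higher per kb, both alternatives chosen after seeing the data. In most cases the alternative's own construction, a shorter list or narrower window, gives fewer genes. No paired analysis was possible because each group has 1 library. Faint regions limit the calls made in 1 condition alone, since their counting intervals are wide. STAT3 in SAHA was set against IgG of diluent cells, so a change of background with SAHA cannot be told apart from a change of STAT3.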

Other observations

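A few of the genes have more than 1 paired H3K4me3 region within 5 kb of a start. At Gpr180 the second region had 954 tags in diluent and 871 in SAHA (log2 ratio -0.07, interval -0.20 to 0.07), and its start region 857 and 717 (-0.19). The second regions of Gpr97 and P2ry14 are given with those genes.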
